A study of Homo sapiens with 6 samples.

Results

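The binding of V5-tagged GSE1 on chromatin was examined around the 10 human Toll-like receptor (TLR) genes, TLR1 to TLR10, in NB4, a human cell line of acute promyelocytic leukaemia. The members were given by name, and every peak that overlapped the span of a TLR gene in GENCODE version 44, extended by 50 kb on each side, was taken. These windows held 14 of the 21401 peaks of DMSO-treated cells and 4 of the 13233 peaks of cells treated with MC2580. The 10 genes were compared with all 20033 protein-coding genes of chromosomes 1 to 22, X and Y.

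Chromatin immunoprecipitation sequencing (ChIP-seq) with a V5 antibody had been performed on NB4 cells transduced with the lentiviral vector pLEX_307 carrying GSE1 (transcript variant 2) or with the empty vector (EV). The GSE1 cells had received DMSO or 2 µM of the LSD1 inhibitor MC2580 for 24 h, whereas the EV cells are described as untreated. There were 6 libraries (3 V5 ChIPs and 3 inputs), with 1 library per group, and the data analysed were the peak lists of the DMSO and MC2580 ChIPs. The tagged protein was expressed from a vector in addition to endogenous GSE1. Both lists used the EV ChIP as background, the sequencing depth was unknown, and without replicates no test between the conditions was possible. What differs between the lists thus differs between 2 libraries.

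TLRs are receptors of the innate immune system that recognise conserved microbial molecules. TLR2, paired with TLR1 or TLR6, senses bacterial lipoproteins, TLR4 senses lipopolysaccharide and TLR5 flagellin, all at the cell surface. TLR3, TLR7, TLR8 and TLR9 sense nucleic acids in endosomes, and TLR10 is a close relative of TLR1 and TLR6. Myeloid cells use these receptors to start NF-kB and interferon responses, mostly through the adaptor MYD88. GSE1 is found in complexes with LSD1, which removes methyl groups from histone H3 lysine 4 and is brought to many myeloid genes by the repressor GFI1.

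Sequences at the centres of 6 of the 18 peaks are shown first. They come from the only position found in both lists (TLR9), the highest-scoring peak (TLR1), and the peaks next to the start sites of TLR6 and TLR10. The last 2 come from further DMSO peaks with factor words (TLR2 and TLR8). Each is the 200 bp window around a peak centre on the plus strand of hg38. Capitals mark a match, on either strand, to 1 of 6 words that transcription factors of blood cells are known to prefer, namely GAGGAAGT (PU.1), TGTGGTTT (RUNX), TGANTCA (AP-1), TTGCNNAA (CEBP), AGATAA (bound by GATA factors) and AATCACNGC (GFI1).
TLR9, DMSO, chr3:52225995-52226194: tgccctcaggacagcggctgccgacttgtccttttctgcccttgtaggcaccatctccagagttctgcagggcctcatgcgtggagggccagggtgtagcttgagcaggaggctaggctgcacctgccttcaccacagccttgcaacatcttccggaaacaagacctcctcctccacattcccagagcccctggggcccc
TLR1, DMSO, chr4:38805643-38805842: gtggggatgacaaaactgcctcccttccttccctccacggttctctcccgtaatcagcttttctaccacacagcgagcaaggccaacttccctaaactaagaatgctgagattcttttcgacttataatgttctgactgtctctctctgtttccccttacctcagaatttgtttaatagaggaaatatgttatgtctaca
TLR6, DMSO, chr4:38857950-38858149: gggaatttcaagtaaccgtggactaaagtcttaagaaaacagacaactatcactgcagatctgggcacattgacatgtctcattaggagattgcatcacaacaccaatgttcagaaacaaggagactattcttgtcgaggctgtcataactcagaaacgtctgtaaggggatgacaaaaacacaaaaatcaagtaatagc
TLR10, DMSO, chr4:38786007-38786206: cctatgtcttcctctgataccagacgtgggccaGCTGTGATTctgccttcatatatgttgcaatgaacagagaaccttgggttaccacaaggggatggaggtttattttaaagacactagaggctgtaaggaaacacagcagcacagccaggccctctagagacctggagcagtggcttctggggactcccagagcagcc
TLR2, DMSO, chr4:153661610-153661809: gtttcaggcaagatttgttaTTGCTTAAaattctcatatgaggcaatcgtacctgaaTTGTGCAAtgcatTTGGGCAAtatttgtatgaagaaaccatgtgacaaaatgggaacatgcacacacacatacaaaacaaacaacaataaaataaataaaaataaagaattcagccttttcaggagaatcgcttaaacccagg
TLR8, DMSO, chrX:12956293-12956492: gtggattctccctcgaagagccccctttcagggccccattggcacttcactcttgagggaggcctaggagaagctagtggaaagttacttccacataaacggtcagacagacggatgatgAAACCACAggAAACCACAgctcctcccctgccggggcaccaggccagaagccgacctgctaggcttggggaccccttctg

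Around TLR genes, peaks were found mostly in DMSO-treated cells. A DMSO peak lay in the window of 8 of the 10 genes, against 47.9% of all protein-coding genes, and an MC2580 peak lay in the window of 4, against 27.3%. TLR2, TLR4, TLR5 and TLR8 had a DMSO peak and no MC2580 peak, a pattern seen in 22.8% of protein-coding genes. TLR3 and TLR7 had no peak in either list, as did 49.9% of protein-coding genes. The members are not independent, since overlapping windows joined TLR1, TLR6 and TLR10, and also TLR7 and TLR8, leaving 7 separate loci. Of these, 6 held a DMSO peak and 2 held an MC2580 peak.

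**Figure D1:**
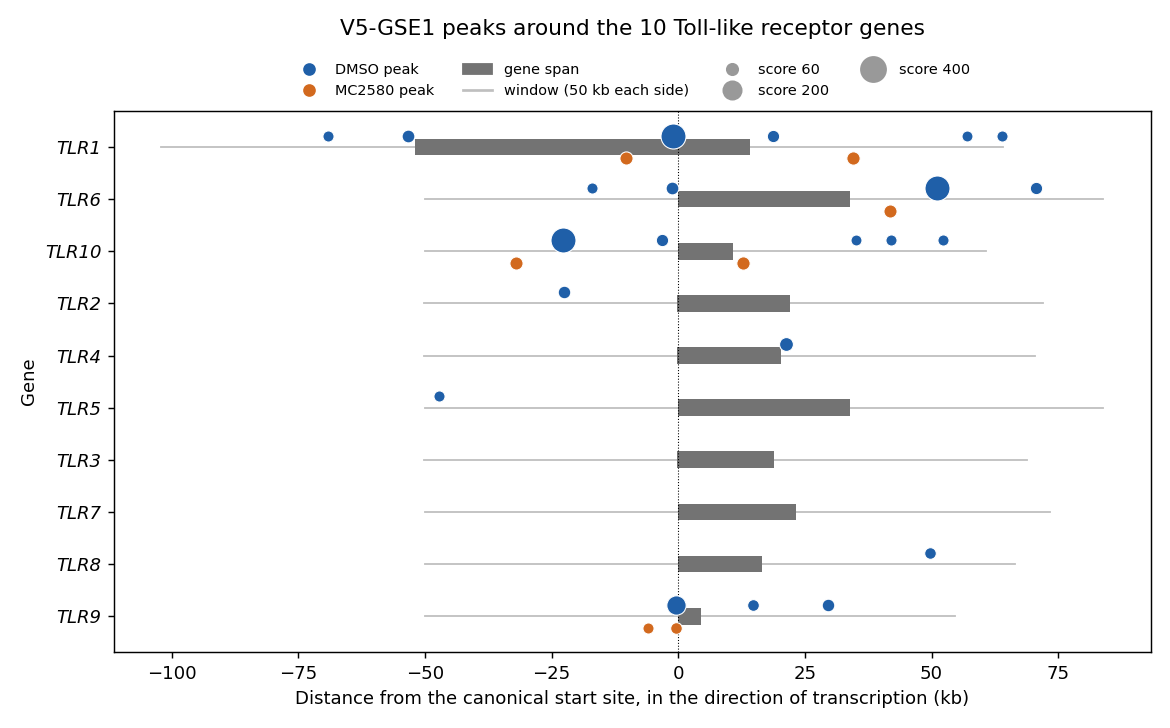
Positions of V5-GSE1 peaks (points, sized by peak score) in the window of each TLR gene, in kb from the canonical start site in the direction of transcription. DMSO peaks (blue, above each line) occur in 8 windows and MC2580 peaks (orange, below) in 4, and a peak in overlapping windows appears in each of them.

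Fewer genes had a peak within 3 kb of a transcription start site (TSS), the distance used here for a promoter. TLR1, TLR6, TLR9 and TLR10 had a DMSO peak there, that is 4 of 10 against 16.1% of protein-coding genes. TLR9 alone had an MC2580 peak there, against 7.87%. The peak near TLR1 and TLR6 start sites is counted for both, because the longest TLR1 transcript shares its first base with TLR6.

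**Figure D2:**
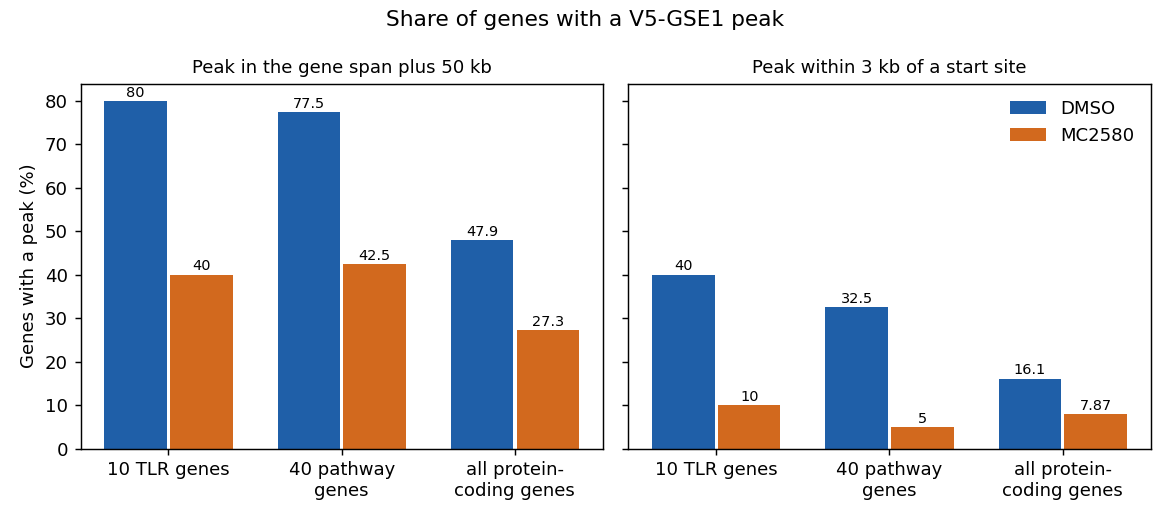
Percentage of genes with at least 1 peak in the gene span plus 50 kb (left) or within 3 kb of a TSS (right), for the 10 TLR genes, 40 genes of the TLR pathway and all 20033 protein-coding genes. Bars show DMSO (blue) and MC2580 (orange), and in the right panel 13 of 40 pathway genes have a DMSO peak and 2 an MC2580 peak.

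In all, the TLR windows covered 0.941 Mb and held 14.9 DMSO and 4.25 MC2580 peaks per Mb, while the windows of all protein-coding genes held 9.19 and 5.40. The number of MC2580 peaks was 0.286 times that of DMSO peaks around TLR genes, and 0.587 times in the windows of all protein-coding genes. The ratio at TLR genes depended on the window, because 6 DMSO and 4 MC2580 peaks lay within 10 kb of the gene spans (0.667, against 0.586 for all genes) and 17 and 6 within 100 kb (0.353, against 0.593). The DMSO peaks had scores from 55.86 to 399.77 with a median of 72.23, below the median of 91.08 of the whole DMSO list. A score is minus 10 times the log10 of the p-value of the peak caller, so that 50 corresponds to its threshold. The MC2580 peaks had scores from 57.65 to 94.32, with a median of 78.53 against 78.1 for the list. Most TLR peaks were therefore weak calls, and 3 of 14 DMSO peaks and 0 of 4 MC2580 peaks had a score of at least 100, against 44.3% and 33.8% of the lists.

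None of the 14 DMSO and 4 MC2580 peaks overlapped the coding sequence of a TLR gene, whereas 2 and 1, respectively, lay over a TLR gene span. Among the DMSO peaks, 7 lay within 3 kb of a TSS of some gene, and for 5 the nearest protein-coding TSS belonged to a gene other than a TLR. Only reads with a unique match had been kept. Of the 50-base words in TLR1 coding sequence, 10.3% also occurred in TLR6, so that reads lying wholly within such a word would have had no unique match. No other pair of TLR genes shared a 50-base word. Whether this had any bearing on the peaks was not tested.

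The TLR10-TLR1-TLR6 cluster on the short arm of chromosome 4, whose genes encode the partners of TLR2 and their relative, held 7 of the 14 DMSO peaks and 2 of the 4 MC2580 peaks. The highest of them lay on chromosome 4 from 38805137 to 38806349, with a score of 399.77 that ranked 1636 among DMSO peaks. This peak overlapped an annotated TSS of TLR1 and an untranslated exon of a TLR1 transcript, and its near edge lay 346 bp upstream of the canonical TSS at 38804791. It was also the only one with a score above 100 in the cluster. The MC2580 list had no peak at this position, and the nearest lay 8234 bp away in an intron of TLR1 (38814583 to 38815574, score 91.13).

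Among 849 DMSO peaks whose score was within 20% of that of the TLR1 peak, 661 were also met by an MC2580 peak, or 77.9% (Wilson 95% interval 74.9 to 80.5, covering counting error only). For the 12 DMSO peaks of the TLR windows with scores up to 103.79, the corresponding shares were 11.8 to 28.4%, so that overlap was the exception among peaks of their scores.

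TLR6 had its closest peak on chromosome 4 from 38857596 to 38858505, which began 779 bp upstream of the TSS that it shares with TLR1. Its score was 85.43, and the nearest MC2580 peak lay 42022 bp away. TLR10, the receptor of this group whose ligands are least understood, had a DMSO peak from 38785693 to 38786521, which began 2703 bp upstream of its canonical TSS at 38782990. This peak had a score of 77.31, and 15005 bp separated it from the closest MC2580 peak. Each of the 3 genes of the cluster thus had at least 1 annotated start site within 3 kb of a DMSO peak and none within 3 kb of an MC2580 peak. Over all protein-coding genes, 16.1% had a DMSO peak and 7.87% an MC2580 peak at that distance. The 3 genes form 1 locus, and the peak from 38857596 to 38858505 is counted for both TLR1 and TLR6.

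The other 4 DMSO peaks of the cluster lay outside promoters and close to the calling threshold. Of these, 3 lay beyond the 3' end of TLR10, between 38730401 and 38748252, with scores of 58.15, 57.92 and 55.86. The remaining one (38873445 to 38874324, score 57.95) lay inside the neighbouring gene FAM114A1, 16628 bp from the start of TLR6. The second MC2580 peak of the cluster (38769905 to 38770688, score 94.32) lay 1550 bp beyond the 3' end of TLR10 and 15005 bp from the nearest DMSO peak. Neither MC2580 peak of the cluster overlapped a DMSO peak. Of MC2580 peaks with scores within 20% of 94.32 and 91.13, 62.6% and 60.8% overlapped a DMSO peak.

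**Figure D3:**
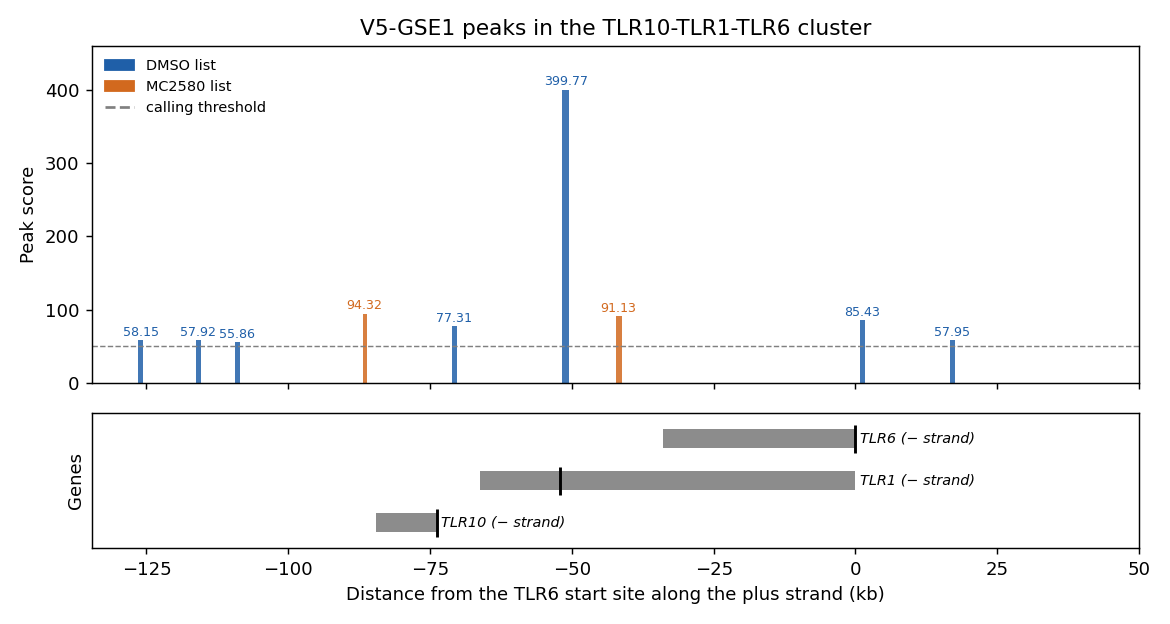
Peak scores across the TLR10-TLR1-TLR6 cluster (upper panel), against distance in kb from the TLR6 start site along the plus strand, with gene spans and canonical start sites (black ticks) below. The DMSO peak near the canonical TLR1 start has a score of 399.77, and the 2 MC2580 peaks, with scores of 94.32 and 91.13, lie at positions with no DMSO peak.

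The cluster lies in a 1 Mb bin with 41 distinct peaks of both lists, just above the 40 that marked 118 peak-dense bins of the genome. The bins of the other TLR genes held between 1 and 17 peaks. Whether local peak density contributed to the number of peaks at the cluster was not tested. Without peaks in dense bins, 7 DMSO and 2 MC2580 peaks were left around TLR genes.

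TLR9, the endosomal receptor for unmethylated CpG DNA, was the only TLR gene with a peak shared by the lists, against 19.3% of protein-coding genes with a shared peak in the window and 5.09% with a shared peak within 3 kb of a TSS. The DMSO peak on chromosome 3 from 52225595 to 52226595 (score 228.02) covered the TLR9 TSS at 52225645. It also overlapped coding sequence of ENSG00000173366, an overlapping gene that has no symbol. The MC2580 peak from 52225697 to 52226626 (score 65.93) began 52 bp upstream of the TLR9 TSS. The peaks overlapped by 899 bp, or 89.8% of the DMSO peak and 96.7% of the MC2580 peak. The MC2580 score was 0.289 times the DMSO score. Scores depend on depth, which was unknown, so the ratio does not measure binding. Of 1839 DMSO peaks with scores within 20% of 228.02, 1087 had a counterpart in the MC2580 list, or 59.1% (Wilson 95% interval 56.8 to 61.3).

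The remaining peaks of the TLR9 window lay outside the TLR9 gene, at genes annotated around it. A DMSO peak from 52210353 to 52211301 (score 67.15) lay within ALAS1, which encodes the first enzyme of haem synthesis, 151 bp from a TSS of that gene. Another from 52195654 to 52196664 (score 81.72) lay 1422 bp from the first ALAS1 TSS. The second MC2580 peak (52231306 to 52231987, score 57.65) lay over coding sequence of TWF2, an actin-binding protein, 5661 bp upstream of TLR9. The protein-coding TSS nearest to it, at 116 bp, was that of ENSG00000173366, whose span overlaps those of TLR9 and TWF2. None of these 3 peaks overlapped a peak of the other list.

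**Figure D4:**
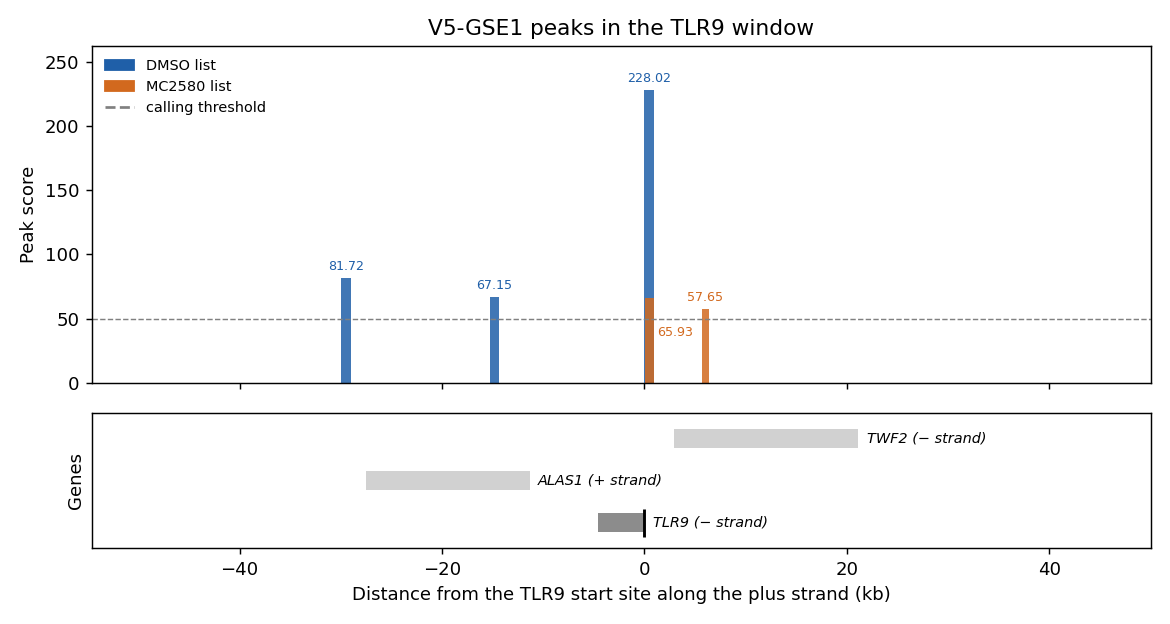
Peak scores across the TLR9 window (upper panel), against distance in kb from the TLR9 start site along the plus strand, with the spans of TLR9, ALAS1 and TWF2 below. The DMSO and MC2580 peaks at the TLR9 start site overlap by 899 bp and have scores of 228.02 and 65.93, and the other 3 peaks lie towards or in ALAS1 and TWF2.

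The other surface receptors each had at most 1 peak. TLR2, the partner of TLR1 and TLR6, had a DMSO peak 21961 bp upstream of its first TSS, on chromosome 4 from 153661312 to 153662109 (score 81.54). The nearest TSS of any annotated gene to this peak, at 2740 bp, was that of WDR45P1. TLR4, the lipopolysaccharide receptor, had a DMSO peak on chromosome 9 from 117725174 to 117726092 (score 103.79), beginning 439 bp beyond the 3' end of the gene and 16977 bp from its nearest TSS. The TLR4 peak also lay within ENSG00000285082, an annotated gene whose span overlaps that of TLR4. TLR5, the flagellin receptor, had a DMSO peak on chromosome 1 from 223190046 to 223190772 (score 58.12), 46798 bp upstream of its TSS and thus near the edge of the window. That peak was closer to the TSS of SUSD4 (38678 bp). The nearest MC2580 peaks were far outside the windows, at 162504 bp from TLR2, 2669231 bp from TLR4 and 1359902 bp from TLR5.

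Among the other endosomal receptors, TLR8 had a DMSO peak on chromosome X from 12955951 to 12956836 (score 65.74), 32782 bp beyond its 3' end. The nearest protein-coding TSS to that peak, at 18274 bp, was that of TMSB4X, which encodes an actin-sequestering peptide. It was also the closest DMSO peak to TLR7, at 65590 bp, outside the TLR7 window. TLR3, the receptor for RNA duplexes, had its closest DMSO peak at 102994 bp (score 55.25) and its closest MC2580 peak at 1213545 bp.

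Taking both lists, 1 of 14 DMSO peaks overlapped an MC2580 peak and 1 of 4 MC2580 peaks overlapped a DMSO peak, and no other pair was within 1 kb. In the whole lists these shares were 33.6% and 58.0%. The share rises with the score, from 10.8% of DMSO peaks with scores of 50 to 60 to 98.6% of those with scores of at least 1000. Of the 14 DMSO peaks, 11 had scores below 100, where at most 22.7% of DMSO peaks were shared. Whether the scores account for the low count was not tested.

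**Figure D5:**
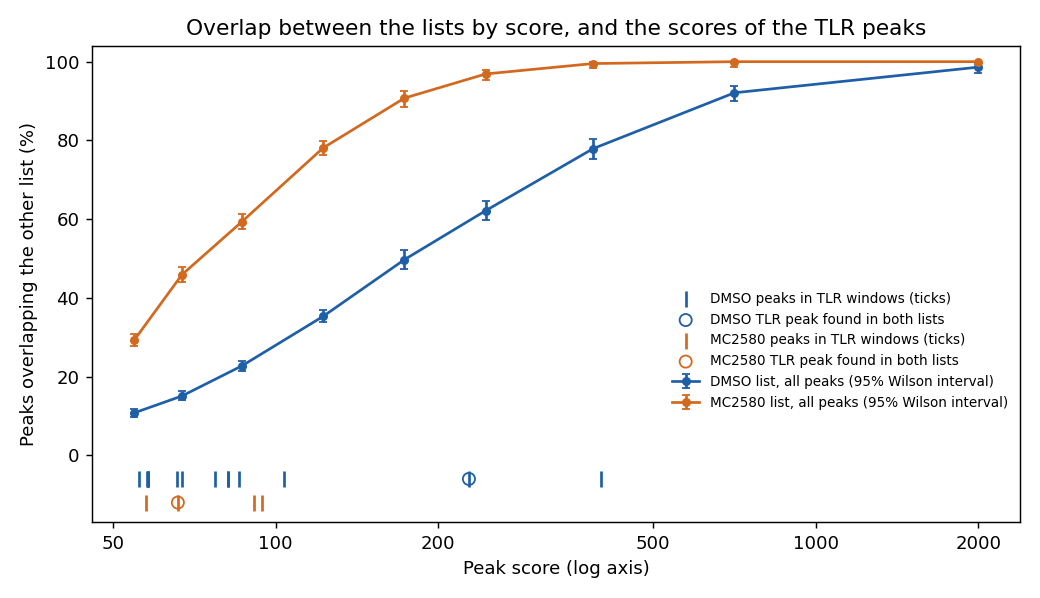
Percentage of peaks that overlap the other list (points with Wilson 95% intervals) in bins of peak score on a log axis, for all DMSO and all MC2580 peaks, with the scores of the TLR peaks as ticks under the curves and circles around the pair at TLR9. Most DMSO ticks lie below a score of 100, where at most 22.7% of DMSO peaks are shared, and the tick at 399.77 (TLR1) carries no circle.

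Of the 6 factor words, at least 1 was found at the centres of 6 of the 14 DMSO peaks and of 0 of the 4 MC2580 peaks, against 34.8% and 29.3% of the centres of all peaks on chromosomes 1 to 22, X and Y. The CEBP word occurred at 3 DMSO centres, against 14.05% of all. These were the peaks of TLR2, with 3 matches, of TLR4, with 1 match, and the peak within ALAS1, with 2 matches. The RUNX word occurred at 1 centre, against 4.64%, and the TLR8 peak carried it as 2 copies of AAACCACA that began 10 bases apart, at positions 121 and 131 of the window. The GFI1 word occurred at 2 centres, against 1.24%, which were the peak upstream of TLR10 (GCTGTGATT, position 34) and a peak beyond the 3' end of TLR10 (AATCACAGC). No match to any of the 6 words was found at the centres of the TLR1, TLR6 and TLR9 promoter peaks. Outside the centres these peaks did hold words: CEBP at TLR1, AP-1, CEBP and GATA at TLR6, and PU.1 and AP-1 at TLR9. For whole peaks no share over the list was computed. The counts are too small to set the TLR peaks apart from the lists, and a match is not evidence of binding by the factor.

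Base composition varied among the TLR peaks. The median GC content was 45.1% for the 14 DMSO peaks, with a range of 35.8 to 60.04%, and 47.0% for the whole list. The peak at the TLR9 start site was the most GC-rich of the DMSO peaks and the TLR2 peak the least. For the 4 MC2580 peaks the median was 55.1%, against 46.2% for the list.

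The genes that act with TLRs were then examined in a list of 40. In DMSO, 13 of these had a peak within the promoter distance, against 16.1% of protein-coding genes, and in MC2580 it was 2, against 7.87%. With the canonical start sites alone the counts were 9 and 2 of 40, against 11.0% and 4.77%. Both genes with an MC2580 peak within 3 kb of a TSS also had a DMSO peak there that was shared between the lists. Of all protein-coding genes, 5.09% had a shared DMSO peak within 3 kb of a TSS. In the wider windows, 31 of the 40 genes had a DMSO peak, against 47.9% of protein-coding genes, and 17 had an MC2580 peak, against 27.3%. By role, the promoter count in DMSO was 1 of 6 co-receptors and ligand-transfer proteins, 1 of 3 transport and folding proteins, 2 of 5 adaptors, 5 of 14 kinases and ubiquitin ligases, 2 of 6 transcription factors and 2 of 6 inhibitors.

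IRF5, a transcription factor that acts downstream of TLR7, TLR8 and TLR9, had the strongest of these peaks. It lay on chromosome 7 from 128947555 to 128949746, with a score of 3100 in DMSO. The TSS that this peak overlapped is internal, since the gene spans 128937457 to 128950038. The overlapping MC2580 peak (128947989 to 128949750) had a score of 1550.37. As at TLR9, scores of the 2 lists depend on depth, so their difference does not measure binding. IRF5 lies in a peak-dense bin with 81 peaks. NFKBIA, the inhibitor of NF-kB that TLR signals induce, had overlapping peaks over a TSS with scores of 194.7 in DMSO and 52.65 in MC2580.

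The other named genes of the list had a promoter peak in DMSO only. MAP3K7 (TAK1), the kinase that links TRAF6 to NF-kB, had a peak with a score of 391.31, 404 bp from an internal TSS, and IKBKE, a kinase of the interferon branch, had one over a TSS with a score of 300.15. NFKB1, which encodes the p105 precursor of NF-kB, had a peak over a TSS with a score of 118.01. LY86, which pairs with the TLR4-like receptor CD180, had a score of 112.66 at 2992 bp, close to the limit of 3 kb. The scores of TAB1, a TAK1-binding protein, IRAK3, an inhibitory IRAK, and TICAM2, a bridging adaptor of TLR4, were 96.73, 77.17 and 64.82. UNC93B1, which carries the endosomal TLRs from the endoplasmic reticulum, had a score of 61.13, CHUK, an I-kB kinase subunit, 56.93, and TIRAP, the adaptor that brings MYD88 to TLR2 and TLR4, 54.94. As at MAP3K7, the TSSs near the TAB1 peak (39412197 to 39413129) and the CHUK peak (100196677 to 100197527) are internal. These genes span 39399778 to 39437060 and 100188300 to 100229596, respectively. The IKBKE peak (206472223 to 206473441) lay inside its gene span, which starts at 206470476.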

How the data were processed

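V5 ChIP-seq was analysed in NB4 cells expressing V5-GSE1 and treated with DMSO or MC2580. According to the methods of the study, the authors aligned reads to hg38 with Bowtie (version 4.8.2 per the labels), retained unique matches, and ran MACS with a p-value limit of 1e-05, with the input and the EV ChIP as background. How both backgrounds were combined was not given in the sources used here. The deposited peak lists hold positions and a score, the caller's minus 10 log10 p. They were not normalised for depth, which was unknown. EV ChIP and inputs were not analysed here.

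Each list was assigned to the ChIP that its name gives. Positions were converted to 1-based hg38 coordinates. Genes, TSSs and exons came from GENCODE 44 (same build), and sequences from hg38. Repeats were not annotated. Peaks of both lists were shared if they overlapped by 1 bp. With 1 library per condition no test was made, and gene counts are set beside the same count over all protein-coding genes. Intervals are Wilson 95% intervals.

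The members, the pathway list and the words were chosen with earlier results of these data known. All 10 TLR genes and, of the pathway list, the 12 genes with the highest promoter peak in either list were named. In addition, peak-dense bins (1 Mb with at least 40 peaks, counting shared peaks once) were chosen after seeing the data. The overlap code was checked on simulated peaks. Software was numpy 2.4.6, pandas 2.3.3, scipy 1.17.1 and matplotlib 3.10.9 under Python 3.11.15.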

Additional observations from a re-analysis of the deposited data

How the results depend on the processing

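No paired analysis was possible because each condition had 1 library, so that no replicate could be left out. Of 63 alternative values, 49 stayed within 1.5 times the value reported and 14 moved. Both the peaks and the genes counted are few, so that a single peak can move a value. A score of at least 100 left 3 DMSO and 0 MC2580 peaks in the TLR windows, with 0 shared peaks in either direction. It left 5 and 0 TLR genes with a DMSO and an MC2580 peak in the window and 2 and 0 with one near a TSS, as well as 6 and 1 pathway genes. These counts are lower by construction, and no share over all protein-coding genes was computed at this score. The 5 genes rest on 3 peaks, because the TLR1 peak lies in the windows of TLR1, TLR6 and TLR10. With windows of 10 kb, 6 DMSO peaks and 5 TLR genes with a DMSO peak were left, against 30.7% of protein-coding genes (47.9% at 50 kb). All 4 MC2580 peaks stayed inside, which brought the ratio of peak numbers from 0.286 to 0.667. Over all protein-coding genes this ratio was 0.587 at 50 kb and 0.586 at 10 kb. The ratio at TLR genes was thus below that of all genes at 50 kb and above it at 10 kb. Without peak-dense bins, an alternative chosen after seeing the data, the windows held 7 DMSO and 2 MC2580 peaks. Windows of 100 kb, peak centres, merging, removal of the widest peaks, other overlap rules, a 1 kb promoter, canonical start sites and 400 bp word windows each left the values within 1.5 times. More DMSO than MC2580 peaks were counted around TLR genes under each alternative run, as in the whole lists (21401 and 13233 peaks). This direction is therefore not particular to TLR genes. Read depth, which limits any comparison of peak numbers, was unknown.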
